A study of Mus musculus with 24 samples.

Results

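The VEGF and angiopoietin signalling genes examined here were 10 genes of the 54532 in the deposited expression table. These members were taken by gene name and not by a cut on their values, with earlier results of these data known. They were 3 VEGF ligands (Vegfa, Vegfb, Vegfc), the VEGF receptors Flt1 and Kdr with the co-receptor Nrp1, 2 angiopoietins (Angpt1, Angpt2) with their receptor Tek, and Hif1a. RNA was sequenced from brain hemispheres of 24 male wild-type C57Bl6 mice, 8 to 12 weeks old, in 4 groups of 6. Each mouse carried an osmotic minipump for 14 days that delivered 0.9% saline (vehicle) or angiotensin II, a peptide that raises blood pressure, at 0.7 mg/kg/day. In each arm, 6 mice were also injected in the tail vein with amnion epithelial cells (AECs), human cells from the amnion of term placentae, and the other 6 received a saline injection. The groups are called vehicle, angiotensin II, vehicle + AEC and angiotensin II + AEC. The study asked whether AECs alter what angiotensin II does, and the angiogenic genes were compared for angiotensin II against vehicle, for AECs in each arm, for angiotensin II among mice given AECs, and for the interaction of both treatments. No VEGF or angiopoietin gene had an adjusted p-value under 0.05 in any of these 5 comparisons.

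VEGF ligands are secreted proteins that bind receptor tyrosine kinases on endothelial cells. Vegfa acts mainly through Kdr (VEGFR2), which drives endothelial growth and permeability, whereas Flt1 (VEGFR1) binds Vegfa and Vegfb tightly and signals weakly, so that it can hold ligand away from Kdr. Angpt1, made largely by cells around the vessel, activates Tek (Tie2) and keeps the endothelium quiet and tight, and Angpt2, released by endothelial cells, often opposes it. Hif1a is the oxygen-regulated subunit of a transcription factor that induces Vegfa and other genes, and its amount is set largely at the protein level, which RNA does not show. In the brain these systems govern capillary density and the blood-brain barrier.

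All 10 genes passed the filter on low values. Their positions on GRCm38 in the deposited table were the same as in the GENCODE M21 annotation. Vegfa lies at chr17:46016993-46032369, Vegfb at chr19:6982473-6987651, Vegfc at chr8:54077606-54187096, Flt1 at chr5:147561604-147726011, Kdr at chr5:75932827-75978458, Nrp1 at chr8:128358604-128503363, Angpt1 at chr15:42424723-42676977, Angpt2 at chr8:18690263-18741562, Tek at chr4:94739289-94874976 and Hif1a at chr12:73901375-73947530. Values of 4 genes are less certain, since Hif1a overlaps Gm15283 and Gm49321, Nrp1 holds the microRNA gene Mir1903, Angpt1 overlaps the antisense gene Gm17473, Angpt2 overlaps Mcph1 on the opposite strand, and the use of strand in counting is not given in the sources used here. Values are per gene, so the isoforms of Vegfa and the soluble form of Flt1 were not told apart.

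Upstream sequence of 8 of the 10 genes (9 start sites) was matched in RefSeq for GRCm38.p6. The 250 bases before the start are shown for the 2 most abundant ligands and for the receptors Flt1, Kdr and Tek, with each match to ACGTG or GCGTG on either strand, the core of the motif that hypoxia-inducible factors bind, in capitals. Tek is on the plus strand and the other 4 genes are on the minus strand, and each sequence reads 5′ to 3′ on the strand of its gene.
Vegfa upstream, chr17:46032378-46032627: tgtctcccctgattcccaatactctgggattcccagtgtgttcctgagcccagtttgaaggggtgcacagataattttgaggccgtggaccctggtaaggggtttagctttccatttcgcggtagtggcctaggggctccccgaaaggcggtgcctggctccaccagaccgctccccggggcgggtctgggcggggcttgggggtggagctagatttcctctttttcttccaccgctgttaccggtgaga
Vegfb upstream, chr19:6987652-6987901: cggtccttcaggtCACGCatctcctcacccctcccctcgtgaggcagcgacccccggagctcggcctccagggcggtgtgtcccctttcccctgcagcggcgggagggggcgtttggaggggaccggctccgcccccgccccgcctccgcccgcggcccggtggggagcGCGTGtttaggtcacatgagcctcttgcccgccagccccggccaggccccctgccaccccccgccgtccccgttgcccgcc
Flt1 upstream, chr5:147726012-147726261: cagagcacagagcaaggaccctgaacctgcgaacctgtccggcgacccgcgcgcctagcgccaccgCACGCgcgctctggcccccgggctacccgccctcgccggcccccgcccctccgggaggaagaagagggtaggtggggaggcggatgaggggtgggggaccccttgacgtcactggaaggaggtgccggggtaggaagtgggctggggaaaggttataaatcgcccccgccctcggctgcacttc
Kdr upstream, chr5:75978456-75978705: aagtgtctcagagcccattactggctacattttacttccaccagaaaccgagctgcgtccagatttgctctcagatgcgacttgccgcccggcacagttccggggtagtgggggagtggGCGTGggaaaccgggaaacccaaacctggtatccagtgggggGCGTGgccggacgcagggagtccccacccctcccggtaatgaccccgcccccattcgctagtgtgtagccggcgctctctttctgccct
Tek upstream, chr4:94739039-94739288: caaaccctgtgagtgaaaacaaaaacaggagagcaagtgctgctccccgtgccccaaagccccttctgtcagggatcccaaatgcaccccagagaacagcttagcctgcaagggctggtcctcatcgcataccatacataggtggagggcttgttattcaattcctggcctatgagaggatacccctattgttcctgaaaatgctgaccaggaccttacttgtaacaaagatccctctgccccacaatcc
Of the 9 windows of the members, 6 had such a match, where 38.6% of the 32851 promoter windows of the same length in RefSeq had either (GCGTG 28.2%, ACGTG 16.6%). The Vegfa and Tek windows above had none and those of Vegfb and Kdr had 2 each. One of the 6 belongs to a second start of Vegfa. That window and those of Nrp1 and Hif1a, also among the 6, lie wholly inside annotated genes and are not shown. The windows differed in composition. G+C made up 76.4% of the Vegfb window, 70.4% of Flt1, 61.6% of Kdr and 59.2% of Vegfa, against a median of 52.4% over all windows. A match is a stretch of letters and not a measured site.

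Levels are FPKM values (fragments per kilobase of gene length, scaled to library size). The order of genes given here depends on the gene length used. That length was 9785 bases for Nrp1, 13504 for Flt1 and 9030 for Kdr, where the longest protein-coding transcript has 3597, 6895 and 5924 bases. For Tek the 2 lengths were close, at 4712 and 4654 bases. Levels of genes such as Nrp1, Flt1 and Kdr may thus be understated beside the others. Over the 24 mice, the ligand Vegfb was highest, at 47.9 ± 10.7 FPKM (SD, n = 24 mice), followed by Vegfa at 18.6 ± 3.19 FPKM and Hif1a at 8.90 ± 0.925 FPKM. Flt1 was the most abundant of the receptors, at 5.52 ± 0.364 FPKM. No mouse broke this order from Vegfb to Vegfa, Hif1a, Flt1 and Tek, since the range of each did not reach that of the next. Tek was at 2.70 ± 0.562 FPKM, Kdr at 1.57 ± 0.264, Vegfc at 1.38 ± 0.200 and Nrp1 at 1.19 ± 0.186 FPKM. Tek was above Kdr in 24 of 24 mice, by a log2 ratio of 0.77 ± 0.247 (SD, n = 24), although the ranges of the 2 receptors overlapped between mice. Kdr was above Vegfc in 18 of 24 mice and Vegfc above Nrp1 in 19 of 24, and these neighbours were not separated beyond their spread. The angiopoietins were lowest. Angpt1 was at 0.875 ± 0.193 FPKM and Angpt2 at 0.539 ± 0.121 FPKM, with Angpt1 the higher in 23 of 24 mice.

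The reads behind these levels set their precision. Deposited FPKM multiplied by gene length gave whole multiples of 1 fragment for 100% of values (within 0.05), and each library held 16536449 to 25308700 fragments. Vegfb rested on 1114 to 2669 reads per mouse and Angpt2 on 21 to 61. Angpt2 has the least support of the 10 genes. Counting alone would give it a coefficient of variation of 16.4% where 21.2% was observed within groups. For Vegfc, a ligand better known for lymphatic vessels, the observed 11.7% was no larger than the 12.4% from counting. Flt1 varied by 5.76% (2.63% from counting) and Kdr by 13.02% (5.94% from counting). These variations are over 18 libraries, as described next, and cover counting error only.

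**Figure D1:**
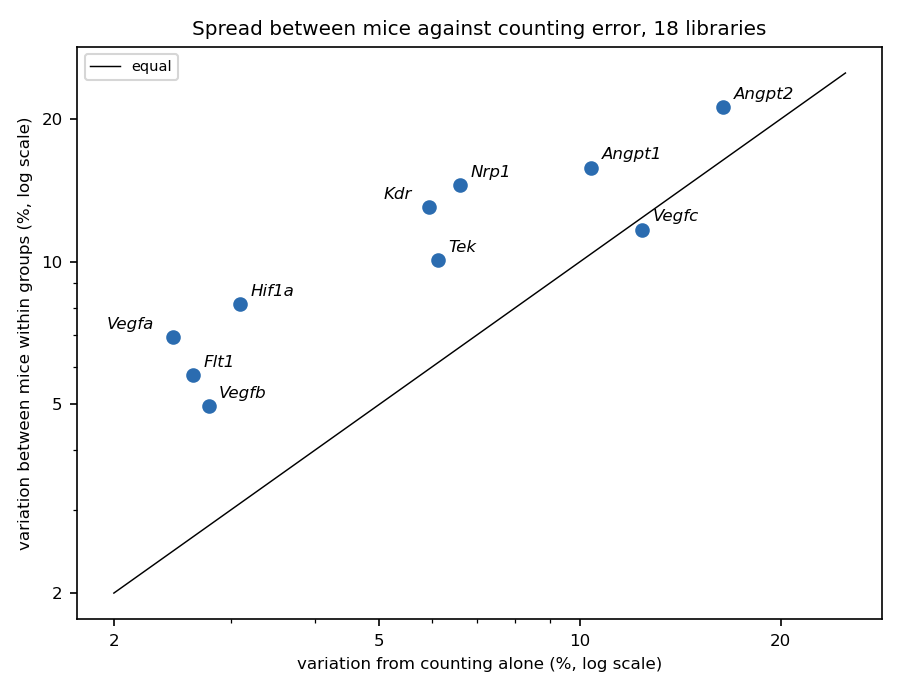
Coefficient of variation between mice within groups (vertical axis, %, log scale) against that expected from counting alone (horizontal axis, %, log scale) for the 10 genes in 18 libraries. Vegfc lies just under the line of equality at 11.7%, and the other 9 genes lie above it.

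Libraries fell into 2 sets that the labels do not name. In 6 libraries (vehicle replicates 5 and 6, angiotensin II replicate 5, vehicle + AEC replicate 6, angiotensin II + AEC replicates 5 and 6) FPKM summed to 338334 to 348597 over all genes and mitochondrial genes took 6.17% to 6.85% of fragments, against 277116 to 298301 and 4.79% to 5.75% in the other 18. What sets them apart was not tested, and each group holds 1 or 2 of the 6. Several members followed this division. Vegfb was at 62.6 to 70.5 FPKM in the 6 high-total libraries and at 38.6 to 46.8 FPKM in the other 18. Vegfa showed the opposite, at 12.999 to 14.4 FPKM in the 6 and 17.3 to 23.3 FPKM in the 18. Tek was at 1.64 to 2.15 FPKM against 2.48 to 3.64 FPKM, and Hif1a at 7.45 to 8.10 against 8.14 to 10.9 FPKM. Neither set overlapped the other for these 4 of 10 genes, and 27.5% of the 27286 genes tested were apart in the same way, 11.2% above and 16.3% below.

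In a limma fit with group and library set, the high-total libraries differed from the others by 0.65 in Vegfb (log2, 95% confidence interval 0.58 to 0.72). The difference was −0.62 in Tek (−0.77 to −0.47), −0.57 in Vegfa (−0.66 to −0.48), −0.43 in Angpt1 (−0.68 to −0.18) and −0.39 in Kdr (−0.57 to −0.21). Hif1a and Nrp1 were lower by less, at −0.25 and −0.23. For Flt1 (−0.06), Vegfc (−0.08) and Angpt2 (−0.12) the interval included 0. The interval left out 0 for 7 of the 10 members and for 57.1% of all genes tested, whose median difference was −0.07. Thus Vegfa and Vegfb, both ligands of Flt1, moved in opposite directions between the sets while the interval of Flt1 included 0. Pgf, a further VEGF ligand outside the members, was higher in the high-total libraries, by 0.56 (0.33 to 0.78). Tek and its agonist Angpt1 were both lower there.

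The members also differ in length and base composition. The longest protein-coding transcript of Vegfb has 62.6% G+C, above 98.4% of 12050 protein-coding genes with a mean of at least 1 FPKM, and its gene length in the table is 1605 bases. Tek has 47.1% G+C and 4712 bases, and Vegfa 50.9% and 4285 bases. Across the 12050 genes the library set difference had a Spearman correlation of 0.54 with G+C and −0.63 with length, given as a description since genes share the same libraries. The 214 genes within 1% of the G+C of Vegfb had a median set difference of 0.49, and the 1203 genes near Tek a median of −0.41. Near Vegfa the median of 1244 genes was −0.13, and Vegfa was lower, at −0.57. Kdr (−0.39 against −0.23), Angpt1 (−0.43 against −0.32), Tek and Nrp1 were also below the median of their neighbours in G+C. Vegfb, Hif1a, Flt1, Vegfc and Angpt2 were above theirs. These neighbours were not matched on length, and their spread is not given. The part of composition in these differences was not tested. As examples, 150 coding bases are given for the gene highest in the high-total libraries, the gene lowest there, and Kdr, with G and C in capitals. They end at base 450 of the coding sequence in the longest protein-coding transcript in GENCODE M21.
Vegfb coding: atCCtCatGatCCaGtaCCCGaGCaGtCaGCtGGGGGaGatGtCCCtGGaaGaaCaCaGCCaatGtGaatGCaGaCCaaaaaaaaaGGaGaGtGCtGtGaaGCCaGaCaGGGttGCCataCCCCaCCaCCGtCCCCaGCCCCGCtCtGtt
Tek coding: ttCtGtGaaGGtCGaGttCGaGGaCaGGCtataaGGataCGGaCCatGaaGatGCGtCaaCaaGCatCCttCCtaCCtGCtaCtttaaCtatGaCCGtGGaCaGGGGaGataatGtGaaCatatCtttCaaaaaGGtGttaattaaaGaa
Kdr coding: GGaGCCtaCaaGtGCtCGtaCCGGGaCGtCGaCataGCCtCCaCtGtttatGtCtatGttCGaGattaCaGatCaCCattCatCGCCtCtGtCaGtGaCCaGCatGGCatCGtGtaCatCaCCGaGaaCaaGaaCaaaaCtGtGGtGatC
G and C fill 83 of the 150 bases in Vegfb (chr19:6985557-6986094, minus strand, 3 exons), 63 in Tek (chr4:94781064-94798696, plus strand, 2 exons) and 74 in Kdr (chr5:75968776-75972316, minus strand, 2 exons). The same stretch of Vegfa, not shown, holds 113, and the whole coding sequences of Vegfa and Vegfb each have 62.0% G+C. The Vegfa coding sequence used has CTG as its first codon, where the other members have ATG, so these stretches are not strictly comparable. Vegfa was lower in the high-total libraries and Vegfb higher, so the order of the genes shown does not extend to Vegfa. It does not hold across the other members either. Vegfc holds 63 as Tek does, with a set difference of −0.08, and Hif1a holds 60, with −0.25.

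**Figure D2:**
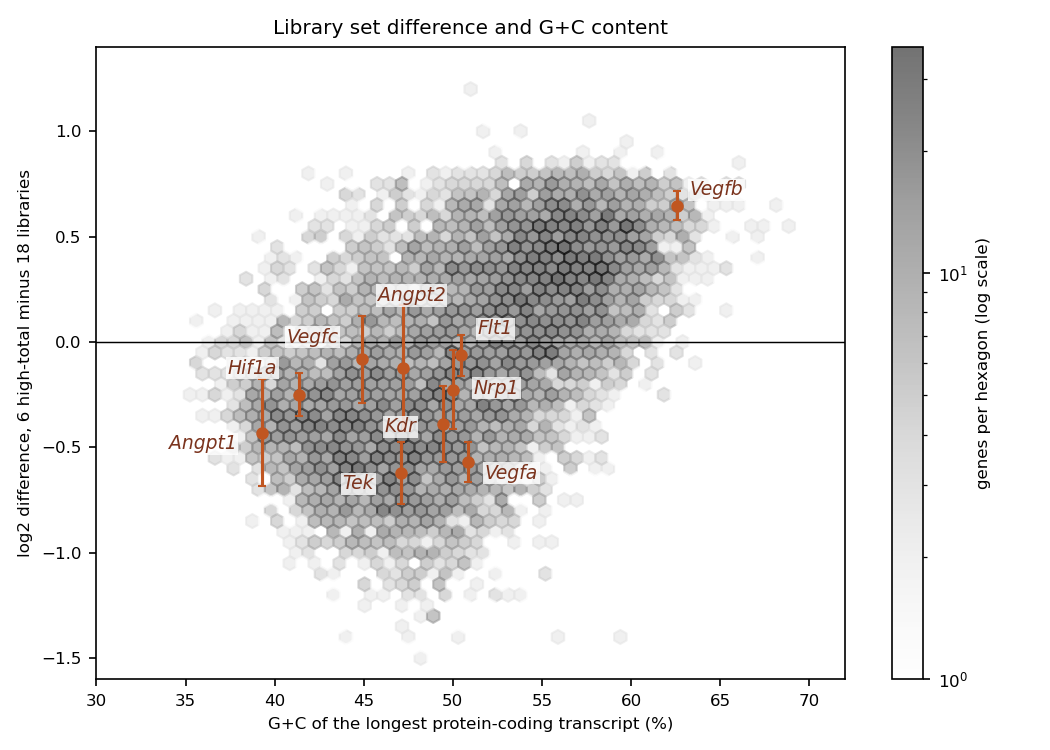
Difference between the 6 high-total and the other 18 libraries (vertical axis, log2, with 95% confidence intervals for the 10 genes in orange) against the G+C content of the longest protein-coding transcript (horizontal axis, %). Grey hexagons hold 12050 protein-coding genes, of which 107 lie outside the axes, and Vegfb sits at the upper right with 62.6% G+C and 0.65.

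Angiotensin II against vehicle gave no detectable difference in the angiogenic genes. In vehicle mice Vegfa was at 13.5, 19.2 and 22.1 FPKM (lowest, median and highest), and in angiotensin II mice at 14.3, 18.6 and 19.95 FPKM. For Kdr the vehicle values were 1.37, 1.65 and 1.93 FPKM and the angiotensin II values 1.101, 1.54 and 1.76 FPKM. Flt1 was at 5.16, 5.34 and 6.30 FPKM and at 5.32, 5.64 and 5.75 FPKM. The groups overlapped for each member. None of the 10 members was below an unadjusted p of 0.05 in limma, where 2.21% of all 27286 genes were, and 0 members and 0% of genes were below an adjusted p of 0.05. The member with the lowest limma p was Kdr, the main signalling receptor for Vegfa, with a log2 fold change of −0.16 (SE 0.148, exact permutation p = 0.212, adjusted p = 0.994 in limma). The median log2 fold change of the members was −0.04, beside 0.02 over all genes. Precision differed among members. For Flt1 the fold was 1.004 with a 95% confidence interval of 0.916 to 1.101, and for Vegfa it was 1.003 with 0.802 to 1.25. Angpt1 had a fold of 1.08 and a wider interval of 0.829 to 1.42, so a moderate difference in Angpt1 was not detectable at this spread.

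AECs in mice infused with angiotensin II gave a similar picture. Vegfb, the ligand that binds Flt1 alone among the VEGF receptors, was at 42.5, 43.4 and 63.5 FPKM with angiotensin II and at 39.6, 40.8 and 64.2 FPKM with angiotensin II + AEC. Nrp1, which holds Vegfa beside Kdr, was at 1.101, 1.16 and 1.41 FPKM and at 0.886, 1.06 and 1.33 FPKM. Both groups overlapped for each member. No member was below an unadjusted p of 0.05 in limma (2.54% of all genes were) and none below an adjusted p of 0.05 (0% of genes). Nrp1 had the lowest limma p, with a log2 fold change of −0.16 (SE 0.129, exact permutation p = 0.180, adjusted p = 1 in limma). The members had a median of −0.00, beside −0.02 over all genes.

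In vehicle-infused mice, AECs were compared with no cells. Angpt2 was at 0.458, 0.542 and 0.647 FPKM in vehicle mice and at 0.296, 0.515 and 0.538 FPKM with vehicle + AEC, which is 21 to 52 reads. All 6 mice given AECs were below the vehicle mean, and the log2 fold change was −0.19 (SE 0.179) with an exact permutation p of 0.160. Tek was at 1.69, 2.72 and 2.94 FPKM and at 1.74, 3.14 and 3.37 FPKM, with a log2 fold change of 0.20 (SE 0.181). No member was below an unadjusted p of 0.05 in limma (2.41% of all genes) or an adjusted p of 0.05 (0%), and the median was −0.02 beside 0.01 over all genes.

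Among mice given AECs, angiotensin II was compared with vehicle. Tek was at 1.64, 2.67 and 3.11 FPKM with angiotensin II + AEC, against 1.74, 3.14 and 3.37 FPKM with vehicle + AEC, and had the lowest limma p of the members (log2 fold change −0.21, SE 0.181, exact permutation p = 0.268, adjusted p = 1 in limma). Hif1a was at 7.62, 8.86 and 9.97 FPKM against 7.89, 9.23 and 10.9 FPKM, a fold of 0.958 (95% confidence interval 0.843 to 1.09). No member was below an unadjusted p of 0.05 (2.66% of all genes) or an adjusted p of 0.05 (0%), and the median was −0.07 beside −0.01 over all genes. In the interaction, which asks whether the effect of angiotensin II differed with AECs, Tek again came first (−0.40, SE 0.256, adjusted p = 0.931 in limma). No member was below an unadjusted p of 0.05 there (2.54% of all genes) or an adjusted p of 0.05 (0%), and the median was −0.01 beside −0.03 over all genes. The 4 comparisons share mice, so their values are not independent of each other.

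**Figure D3:**
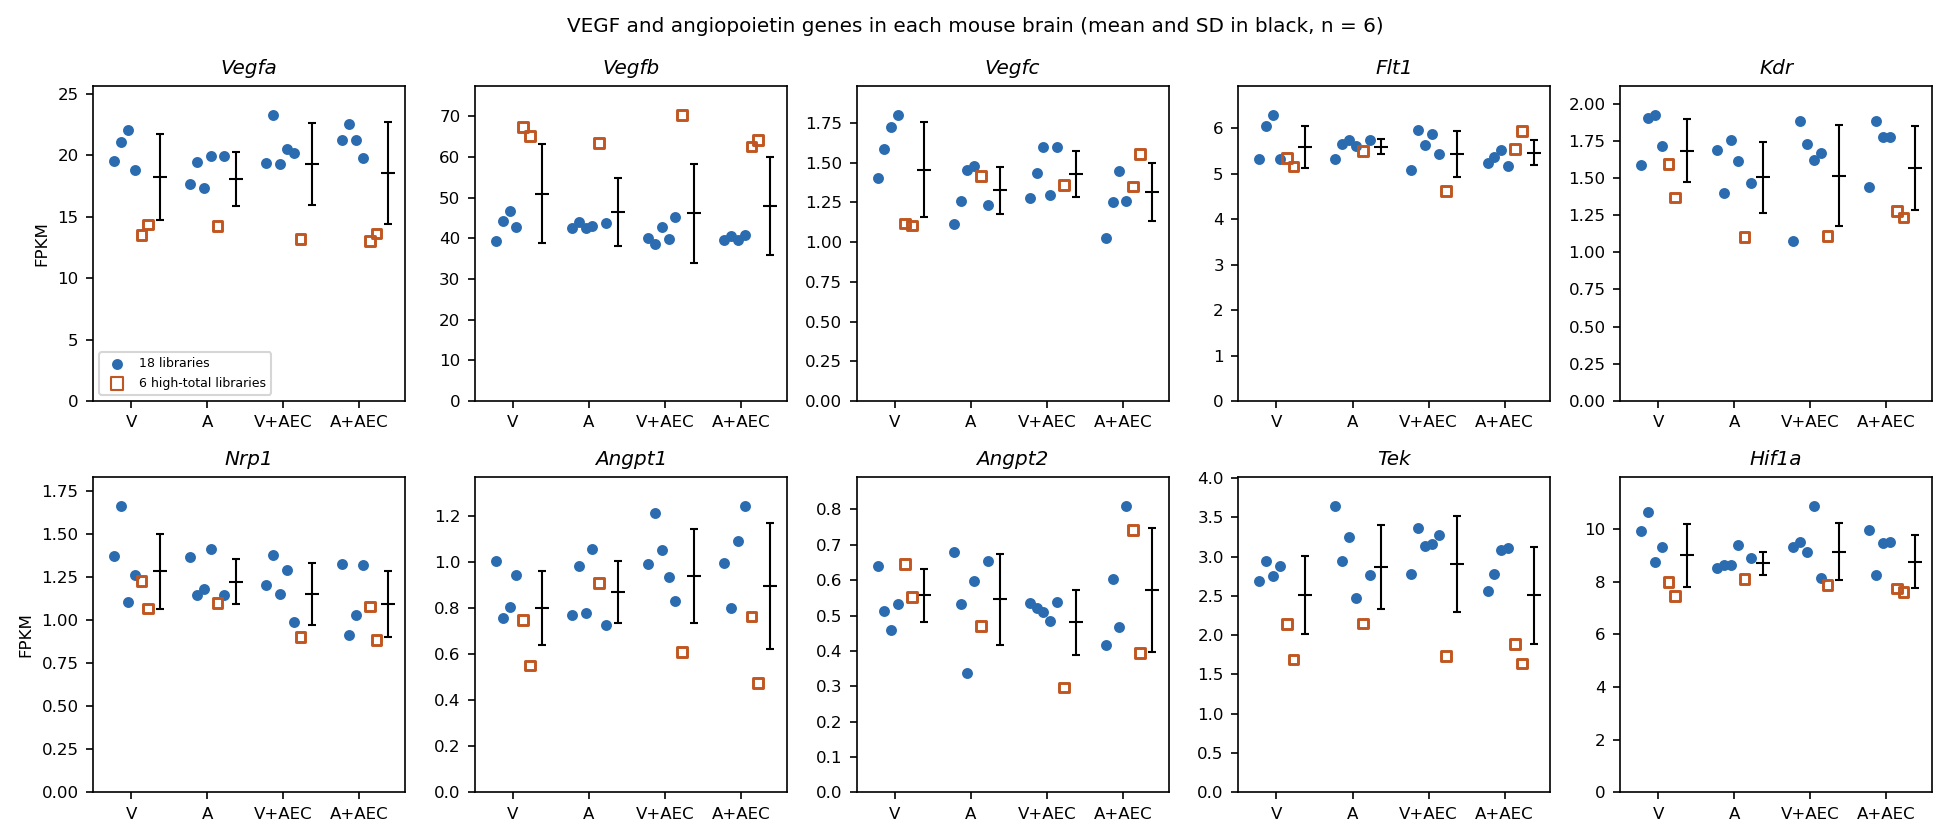
FPKM of each of the 10 genes (vertical axes, from 0) in each mouse of the vehicle (V), angiotensin II (A), vehicle + AEC and angiotensin II + AEC groups, with mean and SD in black (n = 6). Open squares are the 6 high-total libraries, which lie above all others for Vegfb and below all others for Vegfa, Tek and Hif1a, while the 4 groups overlap in every panel.

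Since the library sets widen the spread within groups, the comparisons were repeated with the set as a term in the fit. Standard errors then fell for all 10 members, from 0.170 to 0.0404 for Vegfb and from 0.156 to 0.0553 for Vegfa. The log2 fold change of Kdr was then −0.22 (SE 0.106) for angiotensin II against vehicle and −0.23 (SE 0.106) for vehicle + AEC against vehicle, and its interaction was 0.34 (SE 0.151). All 3 were below an unadjusted p of 0.05 in limma, with an adjusted p of 1 for each. Within sets, an exact permutation test gave p = 0.0370 for Kdr with angiotensin II and p = 0.122 with vehicle + AEC. Among the 18 libraries Kdr was at 1.58, 1.81 and 1.93 FPKM in vehicle mice, 1.398, 1.61 and 1.76 FPKM with angiotensin II, 1.08, 1.67 and 1.88 FPKM with vehicle + AEC and 1.44, 1.78 and 1.88 FPKM with angiotensin II + AEC, so the groups still overlapped. Kdr was thus 1 of 10 members below that threshold for angiotensin II, as were 3.46% of all genes, and 1 of 10 for AECs in vehicle-infused mice (3.54% of genes) and in the interaction (3.41%). Among mice given AECs it was 0 of 10 (4.01%). The lowest of the 18 was vehicle + AEC replicate 1, at 1.08 FPKM, and without the 6 libraries Kdr was not below the threshold in any comparison, at −0.16 for angiotensin II, −0.17 for AECs in vehicle-infused mice and 0.28 in the interaction.

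Vegfb was the other gene to pass an unadjusted threshold with the set in the fit. Its log2 fold change for angiotensin II + AEC against angiotensin II was −0.08 (SE 0.0404, adjusted p = 1 in limma), and the exact permutation test within sets gave p = 0.00529 over 378 arrangements, not adjusted for the number of members tested. In the 18 libraries the values were 42.5, 43.0 and 44.1 FPKM with angiotensin II and 39.6, 40.2 and 40.9 FPKM with angiotensin II + AEC. These did not overlap, as was so for 1 of 10 members and for 1.39% of all genes tested. Of the members, 1 of 10 was below an unadjusted p of 0.05 here, as were 3.9% of all genes. With the 18 libraries alone, Vegfb (log2 fold change −0.10) and Vegfa (0.17) were below that threshold in this comparison, with 4.61% of all genes, and Vegfc (−0.30) was for angiotensin II against vehicle, with 3.86% of all genes. In the other comparisons 0 of 10 were, beside 4.18% of all genes for AECs in vehicle-infused mice, 4.27% for angiotensin II among mice given AECs and 4.2% in the interaction. No member had an adjusted p under 0.05 in these fits.

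**Figure D4:**
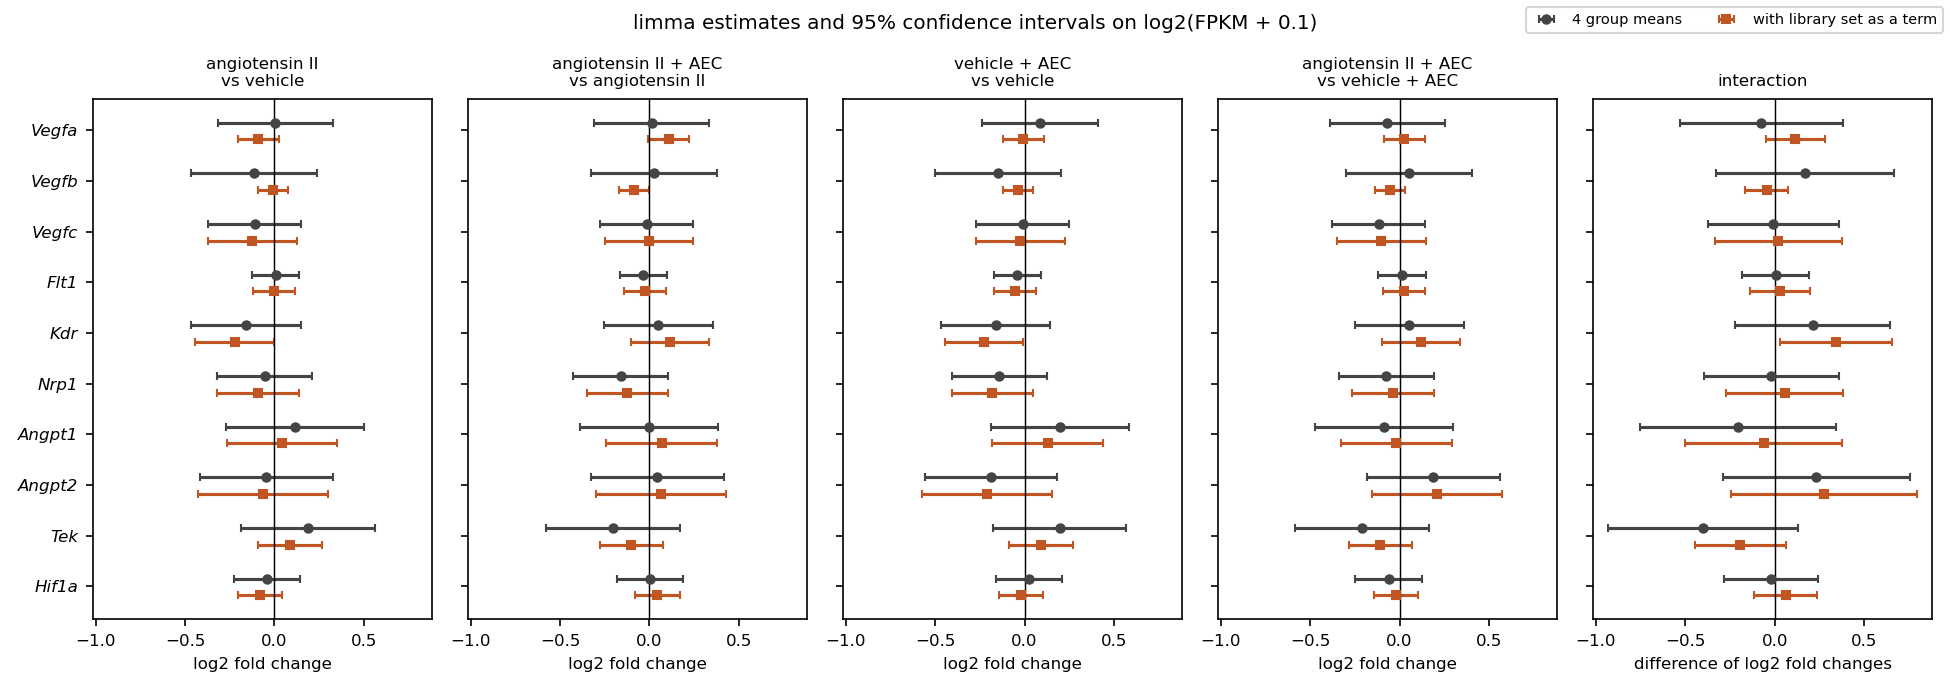
Log2 fold changes (horizontal axis) with 95% confidence intervals for the 10 genes in 4 comparisons, and the difference of log2 fold changes for the interaction, from limma on log2(FPKM + 0.1) with 4 group means (circles) and with the library set as a term (squares). With the set in the fit the intervals narrow most for Vegfb, Vegfa and Tek, and that of Kdr lies at −0.22 (angiotensin II against vehicle) and 0.34 (interaction).

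Ratios within a mouse cancel the scaling of its library, and 5 were compared in 4 pairs of groups by two-sided exact permutation tests with Benjamini-Hochberg adjustment over the 20 tests. Tek relative to Kdr, the main receptors of the angiopoietin and VEGF systems, was at 1.24, 1.48 and 1.69 (lowest, median and highest ratio of FPKM) with vehicle and at 1.54, 1.92 and 2.16 with angiotensin II. It was at 1.57, 1.88 and 2.58 with vehicle + AEC and at 1.33, 1.60 and 1.78 with angiotensin II + AEC. The ratio was thus high in the groups with a single treatment and lower with neither or both, with overlap between groups. The log2 difference was 0.37 for angiotensin II against vehicle and 0.38 for vehicle + AEC against vehicle (exact permutation p = 0.0108, adjusted p = 0.0866 for each). It was −0.27 for angiotensin II + AEC against angiotensin II and −0.28 against vehicle + AEC (exact permutation p = 0.0303 and 0.0325, adjusted p = 0.108 for each). The ratio also differed between library sets, at 0.85 ± 0.208 (log2, SD) in the 18 libraries and 0.55 ± 0.235 in the 6, of which vehicle and angiotensin II + AEC hold 2 each and the other groups 1 each. In each comparison 6 of 6 mice lay on the side of the difference from the reference mean, and the comparisons share groups, so they are not independent of each other.

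No ratio passed the adjusted threshold, and 6 of the 20 were below an unadjusted p of 0.05. The other 2 were Angpt2 relative to Angpt1 (antagonist to agonist of Tek), with a log2 difference of −0.45 for vehicle + AEC against vehicle (exact permutation p = 0.0130, adjusted p = 0.0866), and Vegfa relative to Kdr in the same groups (0.26, exact permutation p = 0.0281, adjusted p = 0.108). Angpt2 relative to Angpt1 was at −0.79 in the 18 libraries and −0.42 in the 6, and Vegfa relative to Flt1 at 1.85 and 1.35. Kdr is the denominator of 3 of the 5 ratios. Vegfa relative to Flt1 and Flt1 relative to Kdr were not below 0.05 in any pair of groups over the 24 mice. In the 18 libraries Vegfa relative to Flt1 differed by 0.25 for angiotensin II + AEC against angiotensin II (exact permutation p = 0.0159, adjusted p = 0.106), and within sets Flt1 relative to Kdr differed by 0.22 for angiotensin II against vehicle (exact permutation p = 0.0370, adjusted p = 0.148). Permuting within library sets, the Tek/Kdr difference for vehicle + AEC against vehicle was 0.32 (exact permutation p = 0.00265, the smallest these arrangements can give, adjusted p = 0.0529), and in the 18 libraries alone it was 0.34 (exact permutation p = 0.0159, the smallest that 4 mice against 5 allow, adjusted p = 0.106). For angiotensin II against vehicle and for angiotensin II + AEC against angiotensin II, the 18 libraries gave 0.26 and −0.17 (exact permutation p = 0.0794 and 0.175), so both lost the unadjusted call, as did Angpt2 relative to Angpt1 (−0.24, exact permutation p = 0.0952). On leaving out each of 12 mice in turn, the unadjusted p stayed under 0.05 in 12 of 12 fits for angiotensin II against vehicle and for vehicle + AEC against vehicle. It did so in 7 of 12 for angiotensin II + AEC against angiotensin II and in 6 of 12 for angiotensin II + AEC against vehicle + AEC. The adjusted call depends on single mice. Without angiotensin II replicate 4 the Tek/Kdr differences for angiotensin II against vehicle (0.43) and angiotensin II + AEC against angiotensin II (−0.33) had an adjusted p of 0.0433 by the exact permutation test. Without vehicle + AEC replicate 6, a high-total library, the other 2 did (0.44 and −0.34, adjusted p = 0.0433 by the exact permutation test). The highest p in the less stable pair came without angiotensin II replicate 1, where that for angiotensin II + AEC against angiotensin II was 0.0606, and without vehicle + AEC replicate 1, where that for angiotensin II + AEC against vehicle + AEC was 0.0649, both by the exact permutation test.

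**Figure D5:**
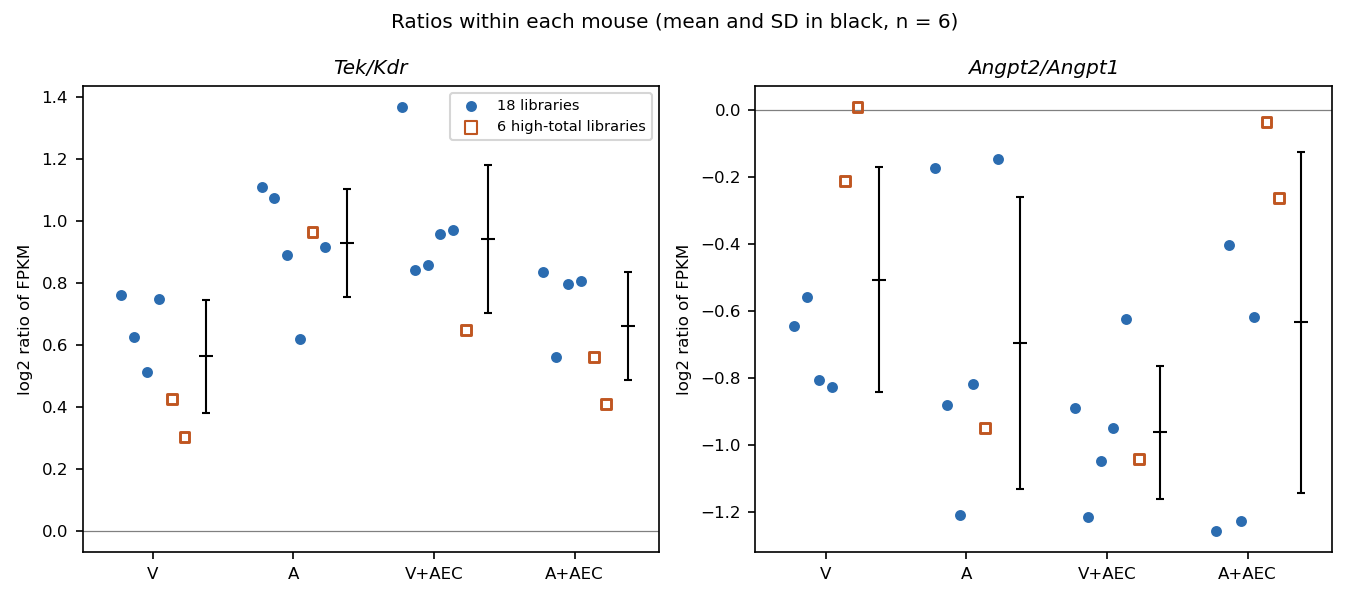
Log2 ratio of Tek to Kdr and of Angpt2 to Angpt1 (vertical axes) in each mouse of the 4 groups, with mean and SD in black (n = 6). Tek/Kdr averages 0.56 with vehicle, 0.93 with angiotensin II, 0.94 with vehicle + AEC and 0.66 with angiotensin II + AEC, and open squares are the 6 high-total libraries.

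Besides the members, 58 genes of the same pathways were followed, and none had an adjusted p under 0.05 in any comparison. Unadjusted, 2 of 58 were below 0.05 for angiotensin II against vehicle (both lower, beside 2.21% of all genes), 0 for AECs in angiotensin II mice (2.54%) and in vehicle mice (2.41%), 2 for angiotensin II among mice given AECs (both higher, 2.66%) and 1 in the interaction (2.54%). Dok2, an adaptor that binds activated Tek, was at 0.315, 0.487 and 0.642 FPKM in vehicle mice and 0.270, 0.340 and 0.413 FPKM with angiotensin II (log2 fold change −0.41, SE 0.184, exact permutation p = 0.0195, adjusted p = 0.994 in limma), on 17 to 36 against 16 to 20 reads. Its interaction was 0.65 (SE 0.260, adjusted p = 0.931 in limma). The other Tek ligand, Angpt4, was listed at 0 to 6 reads, too few for a fold. Dll4, the Notch ligand of angiogenic tip cells that VEGF induces, was at 0.619, 0.810 and 0.974 FPKM with vehicle + AEC and 0.908, 1.05 and 1.21 FPKM with angiotensin II + AEC (0.35, SE 0.145, exact permutation p = 0.00866, adjusted p = 1 in limma). Esm1, another tip cell gene, was at 0.0767, 0.153 and 0.261 FPKM against 0.187, 0.322 and 0.451 FPKM (0.72, SE 0.247, exact permutation p = 0.0130, adjusted p = 1 in limma), on 3 to 11 against 7 to 20 reads. In the 18 libraries Esm1 and the interaction of Dok2 were again below an unadjusted p of 0.05 in limma, and Dll4 and the first comparison of Dok2 were not. Dll4 and Esm1 are endothelial genes placed downstream of Kdr, which itself had a log2 fold change of 0.05 in that comparison.

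The rest of the list gave the setting in which the members are expressed. Of the other ligands, Pgf was at 1.43 FPKM on average, close to Vegfc at 1.38, and Vegfd was lower, at 0.672 FPKM. Of the other receptors Tie1, the partner of Tek, was at 3.44 FPKM, Nrp2 at 3.56 and the lymphatic receptor Flt4 at 0.566. Epas1, the endothelial relative of Hif1a, was at 30.7 FPKM, its partner Arnt at 5.08, and the oxygen sensors Egln1 and Egln3 at 24.9 and 4.30, with Vhl, which marks the subunits for breakdown, at 15.3 FPKM. With the library set as a term, Epas1 (0.11) and Nos3, the endothelial nitric oxide synthase (0.27), were below an unadjusted p of 0.05 in limma for angiotensin II against vehicle, as was Dok2 (−0.35), so 3 of 58 were (3.46% of all genes). In the same fit Ndrg1, a gene induced by hypoxia, was below it for AECs in angiotensin II mice (−0.11, 1 of 58, 3.9%) and Ddit4, another, for AECs in vehicle mice (0.23, 1 of 58, 3.54%). Dll4 and Esm1 were again the 2 genes below it among mice given AECs (4.01%) and Dok2 the 1 in the interaction (3.41%). Medians of the 58 log2 fold changes ran from −0.07 in the interaction to 0.02 for angiotensin II, beside −0.03 and 0.02 over all genes.

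Endothelial cells are a small share of brain tissue. In RNA from brain hemispheres, fewer endothelial cells and less RNA per cell cannot be told apart. The 8 endothelial markers were all detected. Their summed level was 68.1 to 106 FPKM with vehicle, 64.4 to 93.4 with angiotensin II, 58.9 to 97.9 with vehicle + AEC and 66.8 to 104 with angiotensin II + AEC, overlapping in every pair of groups. Dll4 and Esm1 are described above for angiotensin II among mice given AECs. There, 1 of 8 endothelial markers (Pecam1, 0.18) and 1 of 4 meningeal markers (Col1a1, 0.60) were higher at an unadjusted p under 0.05 in limma. Of all genes, 2.66% were below that threshold in either direction. Values were positive for all 4 meningeal (median 0.21), erythroid (0.71), microglial (0.06) and oligodendrocyte markers (0.11), and the other lists had both signs. For vehicle + AEC against vehicle all 4 meningeal and all 4 erythroid markers had negative values. Of the meningeal markers, 1 was below that threshold (2.41% of all genes), and 3 with the library set in the fit (3.54%). With the library set in the fit, 3 of 7 mural markers (Acta2 0.25, Rgs5 0.14, Pdgfrb 0.12) were below it for angiotensin II against vehicle. So were Kdr, Nos3 and 3.46% of all genes. The part of these markers in the values of Dll4, Esm1, Kdr and Nos3 was not tested. Between library sets the sum was 87.2 to 106 FPKM in the 6 high-total libraries and 58.9 to 77.5 in the 18, with 4 markers higher and 4 lower, from −0.63 (Ocln) to 0.76 (Cldn5). Mural cell markers summed to 118 to 135 FPKM against 70.4 to 86.6, with 6 of 7 higher (Acta2 by 1.79), and 4 of 4 erythroid markers were higher, by 1.19 to 1.38 (122 to 203 against 32.6 to 188 FPKM in sum). Astrocyte markers, from cells that also make Vegfa, summed to 162 to 190 against 153 to 177 FPKM, with 2 of 5 higher and 3 lower, from −0.53 (Slc1a3) to 0.46 (Gfap). Their part in the differences of Tek, Vegfa and Vegfb between sets was not tested.

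No pair of members passed an adjusted test for varying together from mouse to mouse. Of 8 pairs examined, Flt1 and Kdr had the highest correlation (Pearson r = 0.50, permutation p = 0.0346, Spearman rho = 0.41, permutation p = 0.0962, n = 18), with an adjusted p of 0.277 over the 8 pairs for r, and r was 0.18 without the 2 mice farthest from the median of Flt1. Vegfa and Hif1a had r = 0.20 (permutation p = 0.421, rho = 0.28, permutation p = 0.264, r = 0.09 without the 2 farthest). Over 24 mice and 13649 genes, after removing group and library set, the genes whose deviations were most like each member were Gjb2 for Kdr (r = 0.84), Cgnl1 for Flt1 (0.79), Gm9824 (0.73) and Cav1 (0.70) for Tek, Mib1 for Nrp1 (0.83), Plch1 for Angpt1 (0.81), Upp2 for Angpt2 (0.69), Clp1 for Vegfa (0.78), G6pc3 for Vegfb (0.84), Cntn2 for Vegfc (0.79) and Cacnb4 for Hif1a (0.88). These are the highest of many correlations over points that share libraries and are a description only.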

How the data were processed

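Brain RNA of 24 mice was sequenced, 6 in each of 4 groups taken from the sample labels. The authors deposited FPKM values per gene, with gene length and GRCm38 coordinates. The submitters' processing notes name DESeq 1.10.1, and no aligner, counter or strand setting is given in the sources used here. Fragments per library (16536449 to 25308700) were recovered from FPKM and gene length.

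Tests used limma 3.58.1 in R 4.3.3 on log2(FPKM + 0.1) with a mean trend, 1 fit over 4 groups, and Benjamini-Hochberg adjustment over 27286 genes detected in 6 or more mice, which understates changes of low genes. Labels do not say whether the 6 samples per group came from separate litters or cages. Two-sided exact permutation tests were used for single genes and ratios, and the fit was tested on simulated data. Alternatives were other pseudocounts, filters, sample sets, scaling, voom on the recovered reads, array weights, the replicate number as a block, and the library set. Pseudocount 1 together with the library set, and permutation within library sets, were added after seeing the data. All members were named, with pathway genes at an unadjusted p under 0.05, the principal ligands, receptors and oxygen sensors of that list, and the genes most like each member. The members and lists were chosen with earlier results of these data known. Analyses were run with Python 3.11.15, numpy 2.4.6, scipy 1.17.1, pandas 2.3.3 and matplotlib 3.10.9. RefSeq upstream windows and GENCODE M21 transcripts gave the sequences, and proteins were not used here.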

Additional observations from a re-analysis of the deposited data

Results flagged for a closer look

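Of 40 sets of 6 mice (10 genes in 4 groups), 4 held a mouse whose gap to its nearest neighbour, divided by the range of the group, was above Dixon's 95% critical value, where chance gives about 2. All 4 are high-total libraries. Angiotensin II replicate 5 had Vegfb at 63.5 FPKM, with the next mouse at 44.1 FPKM (share of the range 0.922). Vehicle + AEC replicate 6 accounted for the other 3: Vegfb at 70.5 FPKM with the next at 45.2 FPKM (0.793), Angpt2 at 0.296 FPKM with the next at 0.485 FPKM (0.779), and Tek at 1.74 FPKM with the next at 2.77 FPKM (0.636).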

How the results depend on the processing

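Over 38 alternative settings, no member or pathway gene had an adjusted p under 0.05. In 1300 refits of single members in limma the lowest adjusted p was 0.620, 14 had an unadjusted p under 0.05, and 166 had the opposite sign from the value reported. The cause was not tested. No ratio had an adjusted p under 0.05 as reported or in the other settings, except that leaving out 1 mouse gave 0 to 2 ratios (2 without angiotensin II replicate 4 and 2 without vehicle + AEC replicate 6, each by the exact permutation test). Over all genes, 604 had an unadjusted p under 0.05 in limma for angiotensin II against vehicle, 93 when only genes with a mean of at least 1 FPKM were tested, 944 with the library set as a term, 1053 in the 18 libraries and 1254 with array weights, which called 1 gene in the interaction at an adjusted p under 0.05. Without vehicle + AEC replicate 6 the counts at an unadjusted p under 0.05 were 1188 (658 with all mice) for vehicle + AEC against vehicle, 1247 (725) for angiotensin II among mice given AECs and 1244 (692) in the interaction. Leaving out vehicle + AEC replicate 1 likewise called 1 gene, for angiotensin II among mice given AECs. Replicate numbers are shared by the groups. Correlations of same-numbered mice, in deviations from group means, were 0.23 to 0.53 for replicates 1, 2 and 4 and 0.03 to 0.44 for replicate 3. They were −0.02 to 0.79 for replicate 5 and −0.22 to 0.80 for replicate 6. Those last replicates mix the library sets, which were not removed, and differently numbered mice were not compared. The correlations therefore cannot decide pairing, and the numbers were not taken to pair mice. With the replicate number as a block, 0 members were called in each comparison, as without it. In the interaction 1 of 10 members was below an unadjusted p of 0.05 in limma, as were 1416 of all 27286 genes. For angiotensin II against vehicle 950 genes were. Of the 20 ratios, 3 were below an unadjusted p of 0.05 (6 without the block), each at 0.0312 in an exact permutation test, the smallest that 6 pairs allow. Depth limits Angpt2, Vegfc and Angpt1 most.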
